A study of Mus musculus with 9 samples.

Results

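The genes described here mark the epithelium of the choroid plexus, the tissue in the brain ventricles that secretes cerebrospinal fluid. They were 33 genes for receptors, transporters, secreted proteins, transcription factors, keratins and surface proteins, without ion channels and claudins. A gene was read from each probe set whose platform annotation names that gene alone, which gave 60 of the 45101 probe sets on the array and 31 of the 33 genes. Prlr and Enpp2 had no probe set annotated in this way and were not analysed here. Annotation to 1 gene does not show that a probe set reads that gene alone. Binding to other transcripts was not tested, also for probe sets whose identifiers end in _x_at or _s_at. The study compared apoE-/- choroid plexus (4 arrays) with wild-type choroid plexus (5 arrays), with all animals male, C57BL, on normal chow and 78 weeks old. The apoE-/- animals lack apolipoprotein E, a lipid-carrying protein. Tissue was taken from frozen nervous system by laser capture microdissection, 1 array per sample, and the labels do not say how many animals a capture came from. The p-values below thus reflect only how far these samples vary, part of which can be technical, and precision is limited by the few arrays.

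The choroid plexus epithelium is a single layer of cells joined by tight junctions. It forms the barrier between blood and cerebrospinal fluid, carries nutrients such as folate across it, and releases proteins into the fluid. Otx2, a homeobox transcription factor, is needed for the tissue to form in mouse embryos, and receptors such as klotho and the serotonin receptor 2C are among its best known markers.

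No epithelial gene passed the test between the genotypes, and the differences were small beside those of other genes. The median log2 difference (apoE-/- minus wild-type) was -0.0025 over the 30 genes that could be tested, against 0.0172 over all 11089 genes tested. For this a gene was represented by its brightest probe set, the one of highest mean log2 intensity among those tested. By it 15 epithelial genes read higher in apoE-/- and 15 lower, and 0 passed, where 0.794% of all tested genes passed as higher and 0.866% as lower. Of their 52 tested probe sets, 0 had an adjusted p under 0.05 by limma with Benjamini-Hochberg adjustment over the whole array, where 2.59% of all tested probe sets did (0.670% higher, 1.92% lower). At an unadjusted p under 0.05 there were 5, all lower in apoE-/-, or 9.62% of the 52, against 16.5% of all tested probe sets in either direction and 9.30% lower. They belonged to Otx2, Col9a3, Col8a1, Lbp and Sostdc1. By the brightest probe set there were 2 of 30 (6.67%), both lower, against 14.8% of all tested genes in either direction and 6.83% lower. These shares lie near or below the background, so they are no result about these genes. The groups did not overlap for 1 of the 52 probe sets, while they did not overlap for 6.89% of all tested probe sets. By the brightest probe set this was 0 of 30, against 6.19% of all tested genes.

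The size of the change that these arrays allow is set by the intervals. For 29 of the 30 genes the 95% interval of the difference, not adjusted for the number of genes, lay within 1.5-fold in either direction, a bound chosen after the values were seen. The exception was Col9a3. Over all tested genes 73.9% had such an interval. This holds for the brightest probe set of each gene only. Of the 52 tested epithelial probe sets 47 had such an interval, against 64.4% of all tested probe sets. Dimmer probe sets of Col8a1 (-0.85 to -0.19 on the log2 scale), Lbp (-0.68 to -0.16) and Cd24a (-0.83 to 0.13) reached beyond the bound, as did a dim one of Col9a3. Larger changes in these genes are thus not excluded. The median size of the difference, without its sign, was 0.044 for the epithelial genes and 0.132 for all tested genes on the log2 scale.

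**Figure D1:**
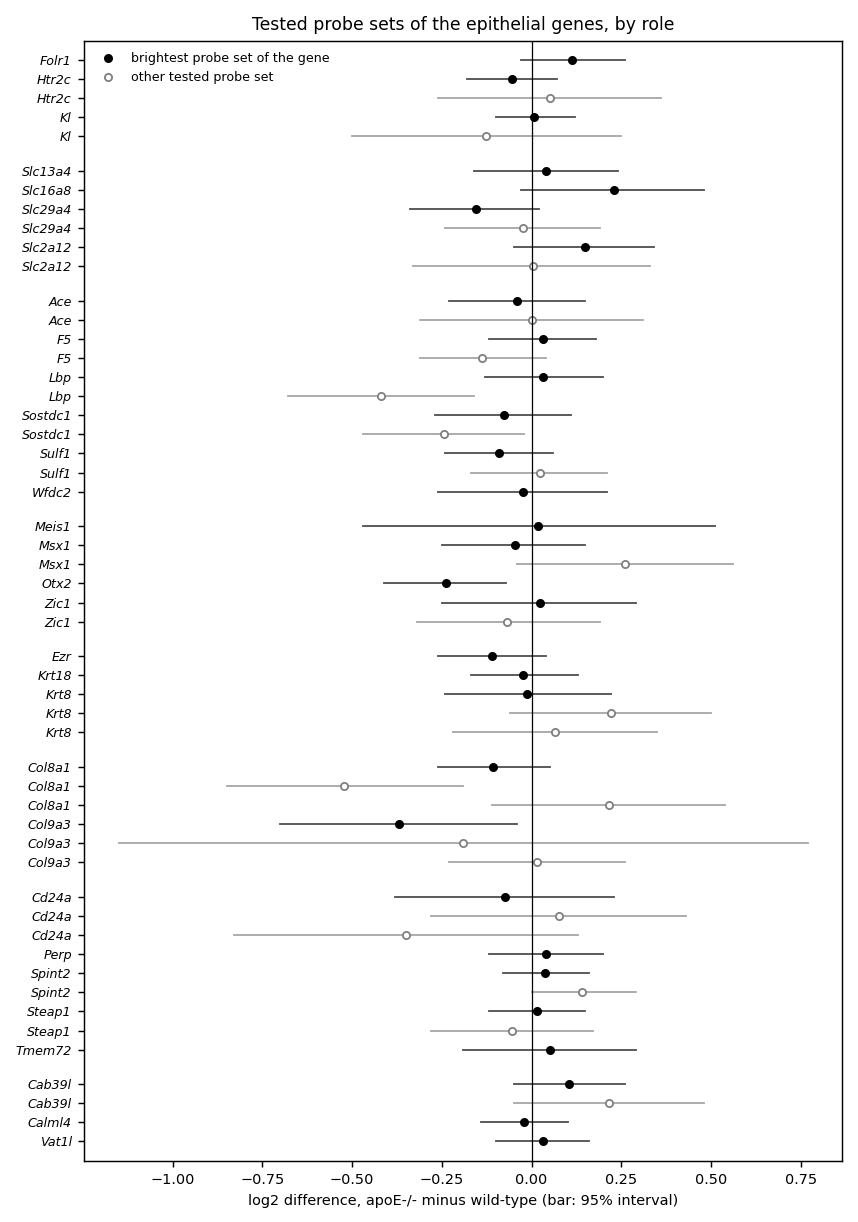
Log2 difference, apoE-/- minus wild-type, on the x axis for the 52 tested probe sets of the epithelial genes, grouped by role down the y axis, with filled points for the brightest probe set of a gene, open points for its others and bars for the 95% interval. Points lie between -0.52 (a second probe set of Col8a1) and 0.26 (a second probe set of Msx1), and most bars span 0.

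Other facts of the arrays that touch these genes were as follows. The Apoe probe set was called present on 0 of 4 apoE-/- and 5 of 5 wild-type arrays, as labelled. The share of probe sets with a present call ran from 44.0% to 49.1% over the arrays. Markers of other cells were measured as means per array of log2 values centred on each gene. Macrophage and microglia markers stood at 0.30, 0.23, 0.49 and 0.02 in apoE-/- replicates 1 to 4, against 0.13, -0.24, -0.27, -0.20 and -0.46 in wild-type replicates 1 to 5, and 12 of 12 tested markers read higher in apoE-/-, of which C1qa, Lyz2 and Ctss passed by limma. C1qa kept its call under all 18 alternatives, while Lyz2 and Ctss lost theirs without apoE-/- replicate 2 or 3 (adjusted p up to 0.0690), and Ctss also without wild-type replicate 4 (0.0503). A probe set of C1qb that is not its brightest also passed, under all 18 alternatives as well. Neuron markers ran from -0.21 to -0.04 in apoE-/- and from -0.15 to 0.54 in wild-type tissue, and oligodendrocyte markers from -0.29 to 0.24 and from -0.27 to 0.73, with wild-type replicate 1 highest in both lists. Endothelial markers ran from 0.00 to 0.08 and from -0.15 to 0.21, and stromal and mural markers from -0.20 to 0.15 and from -0.09 to 0.04. Of the 11 tested stromal and mural markers 7 read higher, with a median of 0.18, and 1 passed by limma, Rgs5 (0.39, adjusted p = 0.0444), a call lost under 13 of 18 alternatives, among them leaving out any array but apoE-/- replicate 1 (adjusted p up to 0.154). Ependymal markers ran from 0.01 to 0.20 in apoE-/- and from -0.21 to 0.14 in wild-type tissue, with 10 of 12 higher in apoE-/-, 0 passing by limma and 3 at an unadjusted p under 0.05. Astrocyte markers ran from -0.08 to 0.37 in apoE-/- and from -0.33 to 0.31 in wild-type tissue, with 5 of 6 higher, 0 passing by limma and 1 at an unadjusted p under 0.05. Called present on no array were Camk2a, Nefm and Tubb3 among 11 neuron markers, Mag and Mog among 7 oligodendrocyte markers, Cx3cr1 and Itgam among 15 macrophage markers and Slc6a13 among 12 stromal markers. Present on all 9 arrays were 4 of the 11 neuron, 4 of the 7 oligodendrocyte, 11 of the 15 macrophage and 10 of the 12 stromal markers. So were 10 of 14 ependymal, 6 of 8 astrocyte and 10 of 12 endothelial markers. The part of these cells in the results was not tested. Without wild-type replicate 1, the count of epithelial probe sets that passed was again 0. In bulk tissue, fewer cells of a type and less RNA per cell cannot be told apart.

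The epithelial genes were also read for detection calls and brightness. They were chosen with earlier results of these data known, so this is no independent check of the tissue label. A probe set was called present on every array for 29 of the 31 epithelial genes, and for 49 of the 60 probe sets. The exceptions were the transcription factors Meis1 and Lmx1a. Many markers of other cells were also present on every array, as given above. By their brightest probe set 25 of the 30 tested genes lay among the brightest 10% of tested genes (1109 genes). Brightness of different probe sets depends on their sequence as well as on the transcript, so these places are not amounts and are not compared between genes. The highest deposited signal of an epithelial probe set was 26220, while the highest signal on an array ranged from 24369 to 38194.6, and compression of differences near that end of the scale was not tested.

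**Figure D2:**
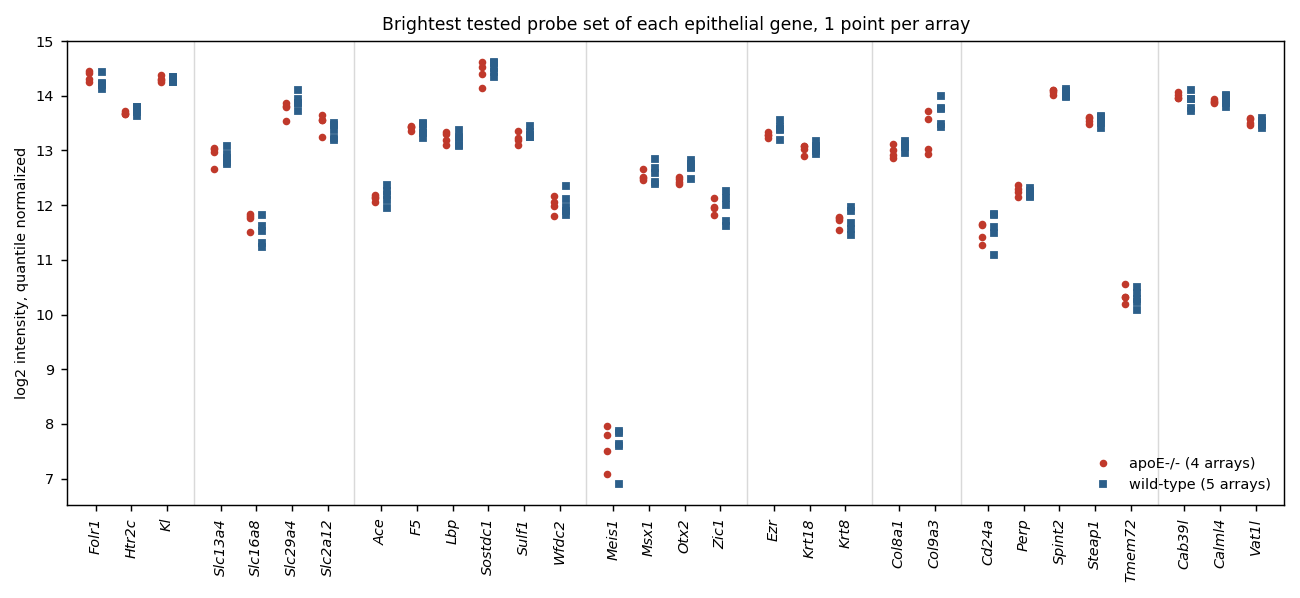
Quantile-normalized log2 intensity (y axis) of the brightest tested probe set of each of 30 epithelial genes (x axis, grouped by role), with 1 point per array, apoE-/- circles left of wild-type squares. The groups overlap for every gene shown, and Meis1 is the gene whose probe set reads lowest, with wild-type values down to 6.90.

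As a set these genes were also steady across arrays after quantile normalization. Their SD without that step was not computed. The mean of the 30 genes on an array, after centring each gene, was -0.010 ± 0.027 (SD) over the 4 apoE-/- arrays and 0.008 ± 0.035 (SD) over the 5 wild-type arrays. Single arrays ran from -0.038 (apoE-/- replicate 4) to 0.058 (wild-type replicate 3). The macrophage means given above spanned -0.46 to 0.49 on the same arrays. Those of 25 other choroid plexus epithelial genes ran only from -0.08 to 0.09, with SDs of 0.045 (apoE-/-) and 0.048 (wild-type), so steadiness was not particular to the 30 genes. The median SD of an epithelial gene over the 9 arrays was 0.119, against 0.207 over all tested genes and 0.13 over those 25 other epithelial genes. Brighter probe sets varied less in general: among the brightest 10% of genes the median SD was 0.130 for all of them and 0.111 for the 25 epithelial genes there. The median size of the difference among those brightest genes was 0.083 for all its genes and 0.041 for the epithelial ones, and 2.34% of its genes passed the test.

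**Figure D3:**
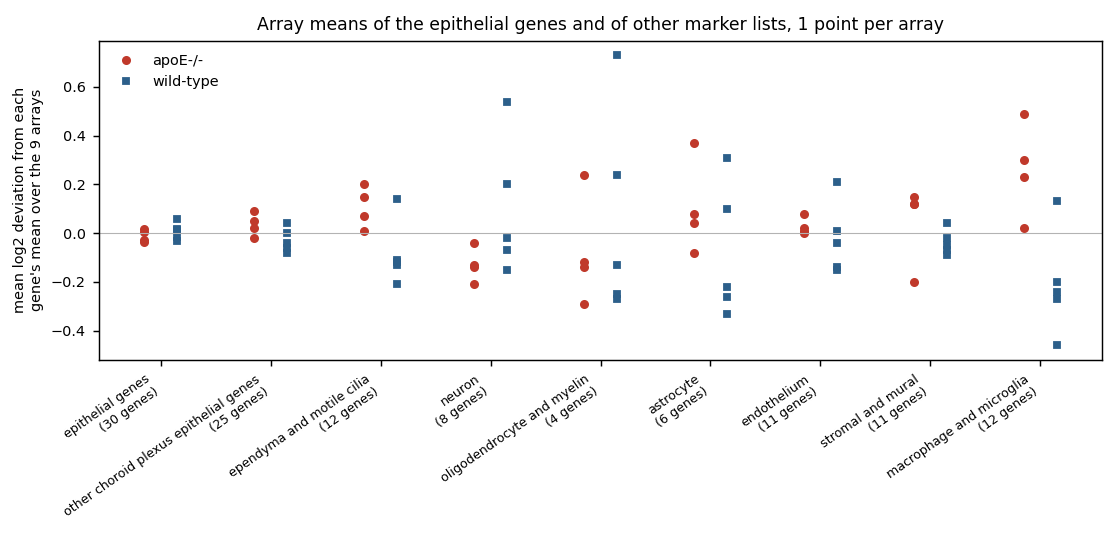
Mean log2 deviation per array (y axis) of the epithelial genes, of 25 other choroid plexus epithelial genes and of markers of other cell types (x axis), 1 point per array, apoE-/- circles left of wild-type squares. The epithelial points stay between -0.038 and 0.058 and those of the 25 other epithelial genes between -0.08 and 0.09, while macrophage points reach 0.49 in apoE-/- and -0.46 in wild-type tissue.

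**Figure D4:**
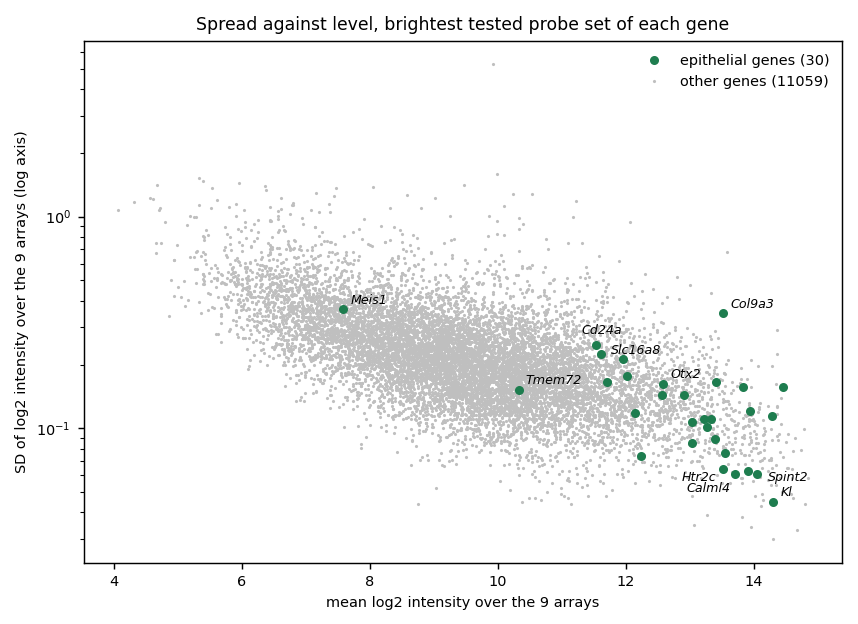
SD of log2 intensity over the 9 arrays (y axis, log scale) against the mean log2 intensity (x axis) for 11089 tested genes, with 30 epithelial genes in green and the rest in grey. Spread falls with brightness in all genes, Kl has the smallest SD of the epithelial genes (0.045) and Meis1 (0.365) and Col9a3 (0.350) the largest, and the grey point far above the others is Apoe.

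The sequence near the starts of the epithelial genes was read from RefSeq promoter windows (build GRCm38.p6), 250 bases before to 50 after each annotated start. Of the 31 genes 24 matched, with 30 windows, since some genes had more than 1. Their median number of CG dinucleotides was 13 per window, against 7 over all 32851 windows. The 6-letter core that OTX factors bind, TAATCC or its reverse complement GGATTA, was found in 3 of the 30 windows (10%) and in 7.06% of all windows. The MEIS core TGACAG, or CTGTCA, was found in 1 window (3.33%) and in 19.2% of all windows. A match is a description of letters, not a bound site, and no binding was measured here. The OTX core was absent from the other windows of Ace and Otx2 and occurred in 1 window each of Ace, Vat1l and Otx2 itself. Shown are that window of Otx2, the transcription factor with the largest difference by the brightest probe set, and, for contrast, those of Kl, the steadiest gene, and Col8a1, the gene with a tested probe set whose groups did not overlap, which hold no OTX core. They lie at chr14:48665060-48665359 on the minus strand, chr5:150952357-150952656 on the plus strand and chr16:57754688-57754987 on the minus strand, and read 5′ to 3′ on the gene's strand with the OTX core in capitals.
Otx2: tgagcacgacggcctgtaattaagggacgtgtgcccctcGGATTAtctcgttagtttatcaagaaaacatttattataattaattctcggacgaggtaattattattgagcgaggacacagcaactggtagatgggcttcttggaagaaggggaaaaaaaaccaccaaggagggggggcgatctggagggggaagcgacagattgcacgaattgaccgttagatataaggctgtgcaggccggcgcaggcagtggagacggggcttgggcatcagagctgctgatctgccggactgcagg
Kl: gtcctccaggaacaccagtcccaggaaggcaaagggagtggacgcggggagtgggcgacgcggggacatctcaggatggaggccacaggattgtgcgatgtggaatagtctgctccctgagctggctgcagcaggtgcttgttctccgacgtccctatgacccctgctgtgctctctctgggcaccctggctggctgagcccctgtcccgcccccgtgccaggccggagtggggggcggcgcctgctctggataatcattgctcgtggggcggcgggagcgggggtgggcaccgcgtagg
Col8a1: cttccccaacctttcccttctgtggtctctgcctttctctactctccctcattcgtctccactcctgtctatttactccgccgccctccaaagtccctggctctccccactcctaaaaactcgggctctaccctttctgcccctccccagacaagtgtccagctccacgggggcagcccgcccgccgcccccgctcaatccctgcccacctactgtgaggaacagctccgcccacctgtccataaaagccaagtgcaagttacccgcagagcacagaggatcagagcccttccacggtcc

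The receptors varied little across arrays, with a median SD of 0.06 over their 3 tested genes. Klotho (Kl), which with a fibroblast growth factor receptor forms the receptor for FGF23 and is also shed into cerebrospinal fluid, read 14.30, 14.26, 14.38 and 14.28 in apoE-/- and 14.25, 14.34, 14.25, 14.31 and 14.35 in wild-type tissue, as quantile-normalized log2 intensity by its brightest probe set. After that normalization the arrays lay within 0.13 of each other, and the difference was 0.01 (95% interval -0.10 to 0.12). The deposited signals of this probe set ran more widely, from 17241.8 (wild-type replicate 5) to 21862.4 (apoE-/- replicate 3). A dim second probe set of Kl, called present on 7 arrays, read -0.13 with an interval from -0.50 to 0.25. Folr1, the folate receptor that carries folate into the fluid, read 14.45, 14.30, 14.41 and 14.26 in apoE-/- and 14.12, 14.19, 14.22, 14.24 and 14.43 in wild-type tissue. Wild-type replicate 5 lay within the apoE-/- range, and the difference of 0.11 did not pass (limma, adjusted p = 0.434). Htr2c, the serotonin receptor 2C, read 13.67, 13.66, 13.68 and 13.72 in apoE-/- and 13.75, 13.71, 13.63, 13.80 and 13.80 in wild-type tissue. All apoE-/- values of Htr2c fell inside the wild-type range, with a difference of -0.06 (interval -0.18 to 0.07), and its second probe set read 0.05.

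Of the 4 transporters, 3 read higher in apoE-/- by their brightest probe set and none passed by limma, with 0 at an unadjusted p under 0.05. Slc16a8, a lactate and monocarboxylate transporter, read 11.81, 11.84, 11.77 and 11.51 in apoE-/- and 11.61, 11.24, 11.82, 11.53 and 11.31 in wild-type tissue. Wild-type replicate 3 was as high as the apoE-/- arrays, and the difference was 0.23 (interval -0.03 to 0.48, limma adjusted p = 0.362). The monoamine transporter Slc29a4 read 13.81, 13.86, 13.79 and 13.53 in apoE-/- and 14.10, 13.86, 13.87, 13.94 and 13.72 in wild-type tissue, with overlap and a difference of -0.16. Its second probe set read -0.02. Slc2a12, a glucose transporter, read 13.64, 13.55, 13.56 and 13.25 in apoE-/- and 13.22, 13.20, 13.51, 13.37 and 13.46 in wild-type tissue. The difference was 0.15, and 0.00 by its second probe set. The sulfate transporter Slc13a4 had 1 probe set, at 0.04 (interval -0.16 to 0.24).

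Among secreted proteins and ectoenzymes, 2 of 6 genes read higher and 4 lower by the brightest probe set, between -0.09 and 0.03, with 0 passing. Lbp, which binds bacterial lipopolysaccharide and passes it to CD14, had 2 tested probe sets, whose difference from each other was not tested. The brightest read 13.34, 13.20, 13.30 and 13.10 in apoE-/- and 13.22, 13.10, 13.38, 13.08 and 13.24 in wild-type tissue, a difference of 0.03. The other (1447520_at) read 9.61, 9.4, 9.27 and 9.19 in apoE-/- and 9.76, 9.58, 9.92, 9.92 and 9.74 in wild-type tissue. Only apoE-/- replicate 1 reached into the wild-type range, and the difference of -0.42 ± 0.120 (SE) had the smallest adjusted p of the epithelial probe sets, 0.0869, which did not pass by limma. Over the alternatives it ran from 0.0685 to 0.253.

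Sostdc1, a secreted antagonist of bone morphogenetic proteins and of Wnt signals, read lower in apoE-/- by both of its probe sets. Its brightest probe set read 14.53, 14.14, 14.40 and 14.62 in apoE-/- and 14.51, 14.43, 14.35, 14.61 and 14.60 in wild-type tissue, a difference of -0.08. The second (1460250_at) read 13.03, 13.02, 12.96 and 12.82 in apoE-/- and 13.31, 13.20, 12.80, 13.29 and 13.41 in wild-type tissue. Wild-type replicate 3 lay below every apoE-/- array there, and the other 4 wild-type arrays lay above. The difference was -0.24 (limma, adjusted p = 0.264), and without wild-type replicate 3 it was -0.34 and passed (limma, adjusted p = 0.0258, in a range of 0.0258 to 0.463 over the alternatives). Sulf1, an enzyme that removes sulfate groups from heparan sulfate, read 13.36, 13.10, 13.22 and 13.19 in apoE-/- and 13.34, 13.24, 13.28, 13.44 and 13.25 in wild-type tissue. The groups overlapped and the difference was -0.09, with 0.02 by the second probe set. Ace, the angiotensin-converting enzyme, read -0.04 and 0.00 by its 2 probe sets, coagulation factor V (F5) 0.03 and -0.14, and Wfdc2, a whey acidic protein family member, -0.03.

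Of the transcription factors, Otx2 differed most by its brightest probe set. It read 12.42, 12.47, 12.52 and 12.38 in apoE-/- and 12.47, 12.70, 12.83, 12.68 and 12.75 in wild-type tissue. Wild-type replicate 1, at the level of the apoE-/- arrays, was the only wild-type array below 12.68. The means were 12.45 ± 0.059 (SD) over 4 apoE-/- arrays and 12.69 ± 0.135 (SD) over 5 wild-type arrays. The difference of -0.24 (interval -0.41 to -0.07, 1.18-fold lower) did not pass by limma (adjusted p = 0.140), nor without wild-type replicate 1, where the adjusted p lay just above 0.05, the lowest of the alternatives, whose highest was 0.268. Msx1, a homeobox factor, read -0.05 by its brightest probe set and 0.26 by the other, in which apoE-/- replicate 3 was highest at 11.69. Zic1, a zinc finger factor, read 0.02 and -0.07.

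Meis1 and Lmx1a, both homeobox factors, were near the limit of detection. Meis1 read 7.08, 7.80, 7.97 and 7.51 in apoE-/- and 6.90, 7.63, 7.84, 7.87 and 7.60 in wild-type tissue by the probe set that was tested, called present on 4 of 4 and 4 of 5 arrays. Its interval, from -0.47 to 0.51, was the widest of any gene's brightest probe set here. Lmx1a, a factor of the embryonic roof plate from which the choroid plexus arises, was called present on 0 of 4 apoE-/- and 1 of 5 wild-type arrays and was not tested. Its probe set read 7.32, 7.89, 7.44 and 7.54 in apoE-/- and 7.68, 7.39, 7.63, 7.67 and 7.95 in wild-type tissue, and no fold is given.

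The keratins Krt8 and Krt18, which pair to form the intermediate filaments of simple epithelia, did not differ beyond the spread between arrays. Krt18 read -0.02 (interval -0.17 to 0.13). The 3 probe sets of Krt8 read -0.01, 0.06 and 0.22, none of which passed by limma (adjusted p of 0.970, 0.854 and 0.426). Ezrin (Ezr), which ties the plasma membrane to actin in microvilli, read 13.28, 13.22, 13.28 and 13.34 in apoE-/- and 13.20, 13.37, 13.39, 13.43 and 13.55 in wild-type tissue. Wild-type replicate 1 was the lowest array and the other 4 were above the apoE-/- range, for a difference of -0.11 (interval -0.26 to 0.04).

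The collagens, Col8a1 and Col9a3, gave unlike values by their several probe sets, though the difference between probe sets was not tested. Col8a1, a short-chain collagen of basement membranes, had 3. Its brightest read 13.12, 12.91, 12.86 and 13.00 in apoE-/- and 13.09, 13.11, 12.96, 13.18 and 13.07 in wild-type tissue, a difference of -0.11. The second (1418440_at) read 11.93, 11.94, 11.70 and 11.09 in apoE-/- and 12.24, 12.19, 12.46, 12.02 and 12.04 in wild-type tissue. This was the 1 of the 52 tested probe sets whose groups did not overlap. Its difference of -0.52 ± 0.154 (SE) did not pass by limma (adjusted p = 0.0955, and 0.0337 to 0.211 over the alternatives), and it was -0.33 without apoE-/- replicate 4, the lowest array. The third, a dimmer one, read 0.21 with an interval from -0.11 to 0.54.

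Col9a3, a chain of collagen IX, had the largest difference of any gene's brightest probe set, at -0.37 ± 0.155 (SE, limma adjusted p = 0.248). It read 13.58, 13.02, 12.94 and 13.72 in apoE-/- and 13.99, 13.42, 13.75, 13.78 and 13.49 in wild-type tissue. Replicates 2 and 3 of apoE-/- lay below every wild-type array, while replicates 1 and 4 lay within the wild-type range. Without apoE-/- replicate 3 the difference was -0.24. A probe set of similar brightness (1460734_at) read 13.23, 13.28, 13.37 and 13.10 in apoE-/- and 13.37, 12.93, 13.62, 13.06 and 13.18 in wild-type tissue, a difference of 0.01 (interval -0.23 to 0.26). In it replicates 2 and 3 were the highest of the apoE-/- group, the reverse of their place in the first. A dim further probe set, called present on 2 arrays of each group, read -0.19 (interval -1.15 to 0.77).

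**Figure D5:**
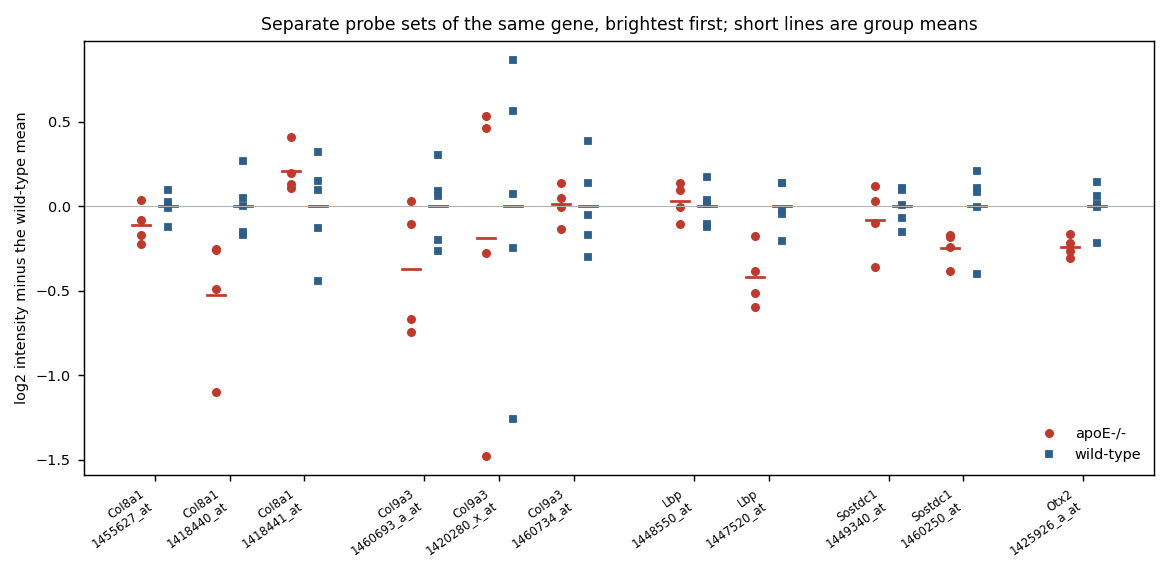
Log2 intensity minus the wild-type mean (y axis) for each tested probe set of 5 epithelial genes (x axis, brightest first within a gene), 1 point per array, apoE-/- circles left of wild-type squares, short lines at group means. The second probe set of Col8a1 has no overlap between groups (difference -0.52) beside -0.11 and 0.21 by the others, and Lbp reads 0.03 and -0.42 by its probe sets.

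The proteins of the membrane and cell surface read between -0.07 and 0.05 by their brightest probe sets. Spint2, an inhibitor of serine proteases such as matriptase, read 14.11, 14.06, 14.10 and 14.01 in apoE-/- and 14.13, 13.99, 14.08, 13.97 and 13.99 in wild-type tissue, with overlap and a difference of 0.04. Its other probe set read 0.14 (limma, adjusted p = 0.319). Cd24a, a small surface glycoprotein, was among the 4 genes of widest spread. It read 11.66, 11.27, 11.42 and 11.64 in apoE-/- and 11.49, 11.84, 11.82, 11.60 and 11.09 in wild-type tissue, whose range held the apoE-/- arrays. Its 3 probe sets read -0.07, 0.07 and -0.35 and none passed by limma. Perp, a membrane protein of desmosomes, read 0.04, Steap1, of a family of metal reductases, 0.01 and -0.05, and Tmem72, a transmembrane protein, 0.05.

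Of the intracellular proteins, Calml4, which resembles calmodulin, read 13.91, 13.87, 13.94 and 13.88 in apoE-/- and 14.01, 13.87, 13.80, 13.99 and 13.91 in wild-type tissue. The apoE-/- arrays lay inside the wild-type range, and the difference was -0.02 (interval -0.14 to 0.10). Cab39l, a scaffold protein of the kinase LKB1, read 13.96, 14.01, 14.06 and 13.96 in apoE-/- and 13.77, 13.94, 13.73, 13.94 and 14.10 in wild-type tissue. Wild-type replicate 5 was the highest of all 9 arrays, and the differences were 0.10 and, by its other tested probe set, 0.22 (limma, adjusted p = 0.513 and 0.420). Vat1l read 0.03.

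Partners of these genes were read from 16 lists of 190 genes, of which 127 were tested. By their brightest probe sets 1 rose and 1 fell over all probe sets by limma, or 1.57%, where 1.66% of all tested genes passed, and the median difference was 0.069. At an unadjusted p under 0.05 there were 23 (18.1%), where 14.8% of all tested genes were, and the counts given below per list are to be read against that share. Hspg2, perlecan, the heparan sulfate proteoglycan of basement membranes on which Sulf1 can act, read 10.38, 10.62, 10.38 and 10.44 in apoE-/- and 9.77, 10.02, 10.10, 10.01 and 9.67 in wild-type tissue. It rose by 0.54 ± 0.11 (SE, limma adjusted p = 0.0205), without overlap, and the call was lost without apoE-/- replicate 2 or 3 (adjusted p = 0.0721 and 0.0540) or without the mean-variance trend (0.0512). Its list, of collagen and heparan sulfate partners, had 8 tested genes with 6 higher and 2 lower, 1 passing, and a median of 0.18.

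Gnaq, the G protein subunit that couples the serotonin receptor 2C to phospholipase C, fell by 2 of its 4 tested probe sets, while the others read -0.25 and -0.07 and did not pass (limma, adjusted p = 0.282 and 0.794). The brighter of them read 9.13, 9.15, 9.25 and 8.79 in apoE-/- and 9.94, 9.20, 9.76, 9.84 and 9.74 in wild-type tissue, with wild-type replicate 2 inside the apoE-/- range. It fell by 0.62 on the log2 scale (limma, adjusted p = 0.0483), a call lost under 12 of 18 alternatives. Among them was leaving out any array except wild-type replicate 2, at an adjusted p up to 0.127. The rest were no quantile normalization (0.0617), no filter (0.0968), no mean-variance trend (0.0968) and the replicate number as a block (0.0784). The other (1428939_s_at) read 8.01, 7.75, 8.03 and 8.10 in apoE-/- and 8.96, 8.68, 8.97, 8.93 and 8.52 in wild-type tissue. The groups were apart, and the fall of 0.84 passed under all 18 alternatives (adjusted p = 0.00679, range 0.00302 to 0.0268). The serotonin list had 10 tested genes, 5 higher and 5 lower, with 1 passing and a median of -0.02.

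Other single probe sets passed where the brightest of the gene did not. Plpp3, a phosphatase that breaks down lysophosphatidic acid, fell by 0.70 in a probe set that read 10.47, 10.32, 10.20 and 9.73 in apoE-/- and 11.05, 11.05, 10.83, 10.47 and 10.98 in wild-type tissue (limma, adjusted p = 0.0284). The brightest probe set of Plpp3 read -0.03 (limma, adjusted p = 0.872). The call of the dimmer one was lost without apoE-/- replicate 3 or wild-type replicate 1, 2, 3 or 5 (adjusted p = 0.0813, 0.0591, 0.0754, 0.0504 and 0.0556). It was also lost without a filter (0.0673) and without the mean-variance trend (0.0851). Zic5, a relative of Zic1, fell by 0.71 (limma, adjusted p = 0.0420) in a probe set that read 7.30, 7.62, 7.75 and 8.03 in apoE-/- and 8.30, 8.39, 8.08, 8.67 and 8.47 in wild-type tissue. The brightest probe set of Zic5 read 0.02 (limma, adjusted p = 0.963). The call of the dimmer one was lost under 12 of 18 alternatives. Of the 9 arrays left out, only apoE-/- replicate 4 and wild-type replicate 3 kept it, with an adjusted p up to 0.125. Also lost was the call without quantile normalization (0.0621), with the 75th percentile scaling (0.0513) and without a filter (0.103). The same held without the mean-variance trend (0.0617) and with the replicate number as a block (0.0587).

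The remaining partner lists had 0 genes passing by their brightest probe sets. Fgfr1, a receptor that klotho joins, read -0.40 by its brightest probe set (limma, adjusted p = 0.1) and 0.40 and 0.10 by the others. Of 6 tested genes in its list 5 read higher and 1 was at an unadjusted p under 0.05. In folate uptake and use 10 genes were tested, 6 higher, with a median of 0.07 and 2 at an unadjusted p under 0.05. Aldh1l1 read 0.30 and Mthfd1l, a mitochondrial folate enzyme, 1.25 (limma, adjusted p = 0.119 and 0.179). Mthfd1l was called present on 3 of 4 apoE-/- and 3 of 5 wild-type arrays. Aldh1l1 also stood in the list of astrocyte markers, so its value counts in both lists, and the part of astrocytes in it was not tested. Moesin (Msn), the relative of ezrin, read 11.53, 11.70, 11.79 and 11.57 in apoE-/- and 11.34, 11.36, 11.12, 11.27 and 11.37 in wild-type tissue. The groups did not overlap, but the difference of 0.35 did not pass (limma, adjusted p = 0.0513), and the second probe set of Msn read 0.01. Moesin is also abundant in macrophages, whose markers differed as given above, and their part in this value was not tested. In the prolactin receptor signalling list 8 genes were tested, from -0.10 to 0.17, and in the monocarboxylate list 6, from -0.10 to 0.34 (Slc16a1).

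Partners of angiotensin-converting enzyme (3 tested, median 0.05), of factor V (7 tested, 0.10), of lipopolysaccharide recognition (4 tested, -0.08), of Spint2 (2 tested, -0.01), of the keratins (7 tested, 0.08) and of LKB1 (9 tested, 0.06) were also measured. By limma 0 of their genes passed, with 1, 1, 1, 0, 0 and 2 at an unadjusted p under 0.05. The lysophosphatidic acid list (7 tested, median -0.03), the transcription factor partners (9 tested, 0.13) and the ezrin relatives (6 tested, 0.12) had 0 passing by limma when each gene was read by its brightest probe set. At an unadjusted p under 0.05 they had 1, 3 and 2 genes. Foxj1, among the transcription factor partners, was also in the list of ependymal markers and counts in both. Of 25 other choroid plexus epithelial genes, 18 read higher and 7 lower, with a median of 0.07 and 0 passing by limma, though 6 were at an unadjusted p under 0.05 (14.8% of all tested genes were) and 1 of their 50 tested probe sets, a second one of the ion channel Trpm3, passed (-1.43, adjusted p = 0.0061), while the brightest of Trpm3 read 0.26. Among them carbonic anhydrase Car14 read 0.37 (adjusted p = 0.0525).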

How the data were processed

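Choroid plexus RNA from 4 apoE-/- and 5 wild-type samples was measured on 1 array each. GCOS 1.4 is the software named, per the submitters' processing notes. The deposited values are signal intensity on a linear scale with a detection call, scaled by the authors per array: all arrays had a mean of 500.0 once the highest and lowest 2% were trimmed. Both deposited tables held the same 405909 intensities. Sources used here do not give the background and summary steps. The 9 columns of detection p-values as deposited were left aside because 18 values exceeded 1.

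Intensities were taken to log2 and quantile normalized, since array medians spanned 0.214, above a limit of 0.1. Tests covered the 21478 probe sets with a present call on 4 or more arrays, leaving out 64 controls. The fit used limma 3.58.1 under R 4.3.3, with genotype as its single term and a trend in eBayes, two-sided, and Benjamini-Hochberg adjustment over all of them at 0.05, and was tested on simulated data. Symbols came from the platform annotation (34958 probe sets with 1 symbol, 932 with several, not used, and 9211 not listed). By gene ID 34754 of those with 1 symbol matched a RefSeq table of assembly GRCm38.p6.

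Members and lists were chosen with earlier results of these data known. Of the members, named with values for each array were the 10 with the smallest p and the 4 with the smallest and 4 with the largest SD by the brightest probe set, and those whose probe sets differ in sign with an unadjusted p under 0.05 in at least 1. Of partner lists, genes with a probe set that passed and up to 2 genes of smallest p were named, and of marker lists those with a probe set that passed. A second probe set of Sostdc1, and Lmx1a, Krt8 and Krt18, were added after their values were seen. Alternatives were other scalings, filters, an offset of 16, a changed variance prior, weights per array, the replicate number as a block, the mean over a gene's probe sets, and each array left out.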

Additional observations from a re-analysis of the deposited data

Results flagged for a closer look

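In 5 of 104 sets of arrays (52 probe sets in each of the genotypes), 1 array lay apart from the rest of its group by Dixon's test on the log2 levels, where chance flags about 1 in 20. In the apoE-/- group this was replicate 2 for the brightest probe set of F5, at 13.35 with the other arrays at 13.43 to 13.45, and replicate 4 for the second probe set of F5, at 12.74 with the others at 13.07 to 13.10. In the wild-type group it was replicate 3 for the second probe sets of Slc2a12 (11.33, others 10.64 to 10.71) and of Slc29a4 (12.16, others 11.68 to 11.78), and replicate 1 for Meis1 (6.90, others 7.60 to 7.87). None of these 5 probe sets passed the limma test between genotypes, with 0 at an unadjusted p under 0.05.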

How the results depend on the processing

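Of the epithelial probe sets, 0 passed in each direction under the 8 settings other than the replicate block and without 8 of the 9 arrays, the exception being wild-type replicate 3. With that array left out 1 fell, the second of Sostdc1, so the number lower was 0 to 1 and the number higher 0 over the arrays left out. With the replicate number as a block, in a fit that drops wild-type replicate 5, 1 fell and 1 rose. The second probe set of Col8a1 fell (-0.559, limma adjusted p = 0.0337), and the second of Cab39l rose (adjusted p = 0.0497). The brightest probe sets of these genes did not pass in that fit (-0.110 and 0.154, limma adjusted p = 0.443 and 0.251). The sample titles give same-numbered samples a shared number, and whether they were also handled together is not known here. Their deviations from the group means correlated at 0.160, -0.015, 0.031 and 0.008 for numbers 1 to 4. Of 8 arrays 3 correlated best with their own number. Over the whole array, 144 probe sets were higher and 412 lower. The numbers were 81 and 248 without a filter, 57 and 252 without the mean-variance trend and 372 and 706 with array weights. Without 1 array they ran from 56 to 237 (higher, lowest without apoE-/- replicate 3 and highest without apoE-/- replicate 4) and from 204 to 535 (lower, lowest without wild-type replicate 4). The cause was not tested. The median difference of the epithelial genes ran from -0.0336 to 0.0182 over the arrays left out. Of 359 values for 20 named probe sets, 13 had the opposite sign, none of them passing by limma. With the 75th percentile scaling Lbp read -0.008, and with array weights Kl read -0.003 and Meis1 -0.074. Over the arrays left out the brightest probe set of Lbp ran from -0.003 to 0.079, Kl from -0.016 to 0.022, Calml4 from -0.048 to 0.001, Cd24a from -0.194 to 0.003 and Meis1 from -0.147 to 0.188. Dim probe sets such as those of Meis1 and Lmx1a limit what can be said of these factors.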

Other observations

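Another probe set of Meis1 (1459423_at), called present on 2 of 4 apoE-/- and 1 of 5 wild-type arrays, was too seldom present to be tested. It read 7.30, 7.48, 7.08 and 7.41 in apoE-/- and 5.78, 6.78, 6.04, 6.51 and 6.47 in wild-type tissue, and the groups did not overlap. In the fit without a filter its difference was 1.0 ± 0.26 (SE, limma adjusted p = 0.117), which did not pass, beside 0.02 for the probe set of Meis1 that was tested. It was chosen after its values were seen. The other 7 untested epithelial probe sets overlapped between groups.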
